A study of Mus musculus with 237 samples.

Results

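The 37 genes described here encode proteins that copy chromosomal DNA or supply what the copying needs. They were taken by gene symbol from a deposited table of 36186 gene entries, and each of the 37 symbols matched 1 entry. The members were sorted by role into 10 genes of origin licensing, 5 of helicase activation and the fork, 12 of DNA synthesis, 5 of nucleotide supply, 3 of chromatin assembly and histone mRNA, and 2 genes of cyclin E. Values are RPKM, reads scaled to transcript length and sequencing depth, measured in single cells of mouse embryonic kidneys. Detected means 1 RPKM or more in that cell.

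The 236 cells fall into 5 groups by the labels. At E18.5 (the embryonic day) the labels give 44 Pax2 mutant cells of the cap mesenchyme, 71 wild-type interstitial cells whose titles carry FoxD1_GCE, and 74 wild-type cells described as cap mesenchyme and cells derived from it. At E13.5 they give 29 Pax2 mutant cap cells and 18 wild-type cells of the cap and derived from it. The strain of every cell is labelled mixed, and the mutant allele, any Cre driver and the embryo of origin are not given in the labels. Nephrons form from progenitors in the cap mesenchyme, the surrounding stroma is called the interstitium, and the transcription factor PAX2 is needed for nephron formation. Because no embryo is named, each group counts as 1 sample: no p-value was computed, SDs describe the spread between cells, and 95% exact intervals of shares cover counting error only.

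The groups differ in more than genotype, lineage and age. All E18.5 mutant cells were in pool 4, all E18.5 cap cells in pool 2, all E13.5 cells in pool 3, and the interstitium cells in pool 2 (22 cells) and pool 3 (49 cells), and each group's titles carry a date of their own. For the E18.5 mutant and for comparisons between ages, pool cannot be told apart from group, and in no comparison can date. The median cell had 3643 detected genes in the E18.5 mutant, 5178 in the interstitium, 5210.5 in the E18.5 cap, 4560 in the E13.5 mutant and 5566 in the E13.5 cap. Pax2 was listed at 0 in all 44 E18.5 mutant cells and detected in 56 of 74 E18.5 cap cells, but it was also detected in 17 of 29 E13.5 mutant cells, against 15 of 18 E13.5 cap cells. Where the reads lie relative to the mutated part is not known, so these values are no check of the genotype. The mean log2(RPKM + 1) over 6 progenitor markers was 0.37 in E18.5 mutant cells (range 0 to 2.10, with Cited1 detected in 0 cells and Six2 in 1), 1.64 in interstitium cells (0 to 6.44) and 3.89 in E18.5 cap cells (0.08 to 6.53). Over 6 stromal markers it was 5.59 in E18.5 mutant cells (2.04 to 7.77), 4.76 in interstitium cells (0.43 to 7.60) and 0.99 in E18.5 cap cells (0 to 6.18). The E18.5 cells labelled as mutant cap thus held stromal more than progenitor transcripts on average, and they are called mutant cells here after their genotype label. A marker score of 4 or more for another cell type was found in 3 cells: 7.5 over 5 immune markers in an E18.5 mutant cell, 4.86 over 6 ureteric markers in an E13.5 mutant cell and 5.28 over 5 endothelial markers in an E13.5 cap cell. Without these 3 cells the replication score defined below differed between mutant and cap cells by -2.35 at E18.5 (-2.36 with them) and by -1.63 at E13.5 (-1.48 with them). At E13.5 the progenitor score was 0.81 in mutant cells and 3.32 in cap cells, and the stromal score was 2.39 in mutant cells and 1.64 in cap cells.

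DNA replication starts from origins that are licensed before S phase. The origin recognition complex, CDC6 and CDT1 load the ring of MCM proteins onto DNA, and CDC45 and the GINS complex later turn that ring into a moving helicase. Polymerases, the sliding clamp PCNA with its loader, and the nuclease and ligase that join the pieces of the lagging strand then copy both strands, while ribonucleotide reductase and its partners keep up the supply of deoxynucleotides. Most of these genes are transcribed around the passage from G1 to S phase under E2F transcription factors, so their transcripts are widely used as a mark of dividing cells such as nephron progenitors.

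Since E2F factors are textbook regulators of these genes, the RefSeq promoters of the members (GRCm38.p6, 250 bases before to 50 bases after each gene start) were searched for 4 forms of the E2F motif: TTTCCCGC, TTTCGCGC, TTTGCCGC and TTTGGCGC. Both strands were read, and forms can overlap one another. A promoter was found for 30 of the 37 members. Of these, 10 held a match (33.3%), against 704 of 27025 genes with a promoter (2.60%). The share was not particular to the members: of further replication factors outside the 37, 12 of 33 with a promoter held a match (36.4%). More than 1 match in a single promoter occurred in 5 members (Mcm3, Mcm5, Mcm6, Mcm7 and Rfc3) and in 29 of the 27025 genes (0.107%). Licensing genes held most of the matches, in 7 of 9 promoters (77.8%), against 3 of 10 for synthesis and 0 of 5 for nucleotide supply. A match is a description of these letters, and no match says nothing about E2F binding elsewhere. The 30-base windows below, 5′ to 3′ on the gene's strand, show the match nearest the gene start in each of the 10 members, with motif letters in capitals.
Orc1 (chr4:108579416-108579445, + strand): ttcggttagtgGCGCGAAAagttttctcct
Cdc6 (chr11:98908002-98908031, + strand): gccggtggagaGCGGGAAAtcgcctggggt
Cdt1 (chr8:122568035-122568064, + strand): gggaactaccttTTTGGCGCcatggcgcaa
Mcm3 (chr1:20820265-20820294, - strand): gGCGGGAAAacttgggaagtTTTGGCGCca
Mcm5 (chr8:75109347-75109376, + strand): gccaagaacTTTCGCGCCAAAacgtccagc
Mcm6 (chr1:128359734-128359763, - strand): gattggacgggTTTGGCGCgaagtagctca
Mcm7 (chr5:138171849-138171878, - strand): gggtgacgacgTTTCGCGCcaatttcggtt
Pola1 (chrX:93632275-93632304, - strand): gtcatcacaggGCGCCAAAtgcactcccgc
Rfc3 (chr5:151651195-151651224, - strand): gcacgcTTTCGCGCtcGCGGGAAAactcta
Lig1 (chr7:13278841-13278870, + strand): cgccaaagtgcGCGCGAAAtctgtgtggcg
In Mcm5 overlapping matches on opposite strands made a run of 12 capitals. The matches shown for Cdt1, Mcm3, Mcm7 and Lig1, and the second of the matches shown for Rfc3, lie after the RefSeq gene start, and that of Lig1 is in 1 of its 3 listed promoters. Mcm7 likewise has a listed promoter without a match. Members with a match lay at both ends of the order of differences between mutant and cap cells described next, with Mcm7 among the 5 lowest and Orc1 the highest. Their 250 bases before the start are shown for that reason, Mcm7 from chr5:138171884-138172133 (- strand) and Orc1 from chr4:108579204-108579453 (+ strand).
Mcm7: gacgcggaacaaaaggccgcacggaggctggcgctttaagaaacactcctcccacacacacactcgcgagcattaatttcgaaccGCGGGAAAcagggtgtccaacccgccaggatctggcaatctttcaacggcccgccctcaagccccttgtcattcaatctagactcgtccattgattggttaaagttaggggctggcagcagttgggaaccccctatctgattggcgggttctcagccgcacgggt
Orc1: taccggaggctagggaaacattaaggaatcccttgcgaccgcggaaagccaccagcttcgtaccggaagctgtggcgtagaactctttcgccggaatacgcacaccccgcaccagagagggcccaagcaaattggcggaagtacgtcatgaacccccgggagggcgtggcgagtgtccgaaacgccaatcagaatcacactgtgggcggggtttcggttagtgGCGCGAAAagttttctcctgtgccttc

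Replication transcripts were scarcer in E18.5 mutant cells than in any other group. The mean log2(RPKM + 1) over the 37 members, called the replication score here, was 0.93 ± 0.51 in E18.5 mutant cells (SD between 44 cells, range 0.28 to 2.61), 3.18 ± 1.61 in interstitium cells (0.64 to 6.39, 71 cells) and 3.29 ± 1.66 in E18.5 cap cells (0.51 to 6.58, 74 cells). At E13.5 it was 2.60 ± 1.46 in mutant cells (0.62 to 5.15, 29 cells) and 4.08 ± 1.13 in cap cells (1.44 to 6.02, 18 cells). All 44 E18.5 mutant cells lay below the median of the E18.5 cap and below that of the interstitium, and 42 of 71 interstitium cells and 43 of 74 cap cells lay above the highest mutant cell. The ranges still overlapped, since only 11 mutant cells lay below the lowest cap cell. The score differed by -2.36 between E18.5 mutant and cap cells and by -2.24 between E18.5 mutant and interstitium cells, against pooled SDs between cells of 1.35 and 1.31.

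The number of members detected per cell was likewise lowest in the E18.5 mutant. The median cell held 8 of 37 members in the E18.5 mutant (2 to 18), 23 in the interstitium (7 to 37), 23 in the E18.5 cap (7 to 37), 18 in the E13.5 mutant (9 to 32) and 28 in the E13.5 cap (15 to 34). Cells with 10 or more members made up 16 of 44 in the E18.5 mutant (36.4%, exact 95% interval 22.4 to 52.2), 66 of 71 in the interstitium (93%, 84.3 to 97.7) and 71 of 74 in the E18.5 cap (95.9%, 88.6 to 99.2). At E13.5 the count was 28 of 29 mutant cells (96.6%, 82.2 to 99.9) and 18 of 18 cap cells (100%, 81.5 to 100). In the E18.5 mutant this share depends closely on where the line is drawn, because 3 cells held 9 members and 6 held exactly 10. At 20 or more members the count was 0 of 44 E18.5 mutant cells, 43 of 71 interstitium cells, 48 of 74 E18.5 cap cells, 14 of 29 E13.5 mutant cells and 17 of 18 E13.5 cap cells.

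**Figure D1:**
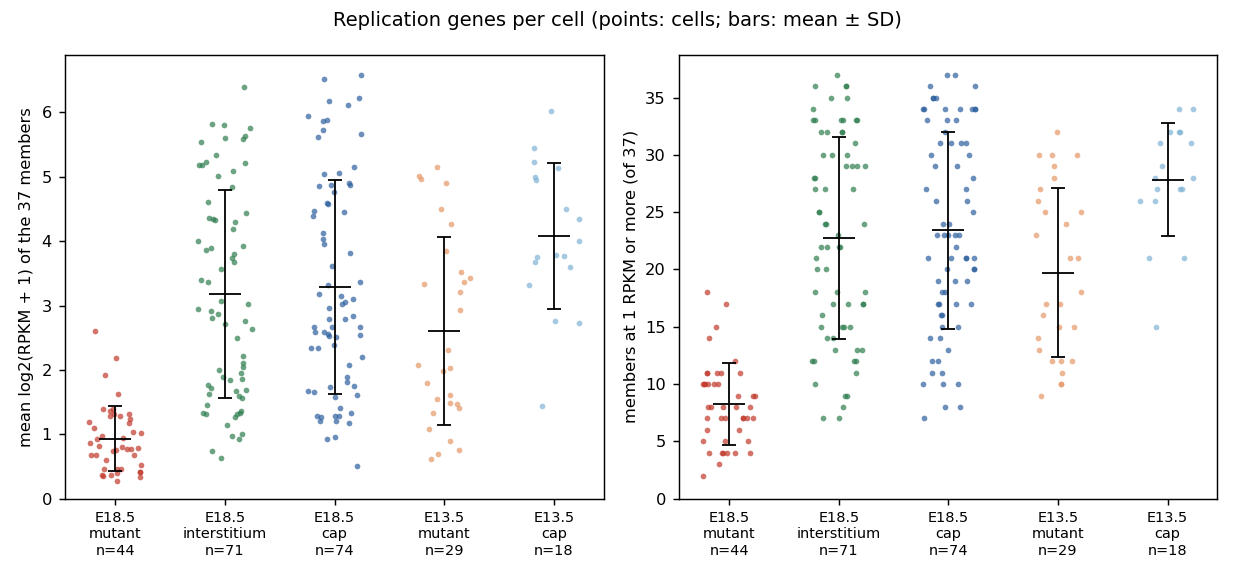
Left, the replication score (mean log2(RPKM + 1) of 37 genes) of each cell; right, the number of the 37 genes detected; points are cells, and bars give the mean ± SD between cells. No E18.5 mutant cell reached 20 members, and the mean score was 0.93 there, against 3.18 in the interstitium and 3.29 in the E18.5 cap.

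A few widely detected genes made up part of the counts in the 16 mutant cells with 10 or more members. Tyms was detected in 16 of these 16 cells, Pole in 15, Slbp in 14, and Cdt1 and Pola1 in 11 each, whereas Mcm3, Mcm4, Mcm6 and Mcm7 were each found in 6, Mcm2 and Rrm2 in 2, and Cdc6 in 0. Tyms, Pole, Slbp and Cdt1 were each detected in over 60% of all E18.5 mutant cells, and they gave 56 of the 191 detections in the 16 cells (29.3%). With those 4 set aside, which makes the line stricter, 10 or more of the other 33 members were found in 9.09% of E18.5 mutant cells, 83.1% of interstitium cells, 86.5% of E18.5 cap cells and 79.3% of E13.5 mutant cells. The 4 were picked by their share in E18.5 mutant cells, so setting them aside weighs most on that group by construction. These shares are therefore no separate support for a difference between groups.

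Cells with more genes had higher scores, with a correlation of 0.52 over 44 E18.5 mutant cells, 0.57 over 71 interstitium cells and 0.68 over 74 E18.5 cap cells, where the members themselves are among the genes counted. The score was therefore compared again in cells with 3000 to 5000 genes. There it was 1.02 ± 0.51 in 33 mutant cells, 2.36 ± 1.45 in 35 interstitium cells and 2.13 ± 1.09 in 26 cap cells. The difference between mutant and cap cells was -1.12 in this window, against -2.36 over all cells, and that between mutant and interstitium cells was -1.34. The medians of genes per cell in the window were still unequal, at 3769 in mutant cells, 4209 in interstitium cells and 4145 in cap cells. Any further part of gene number in the score difference was not tested.

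**Figure D2:**
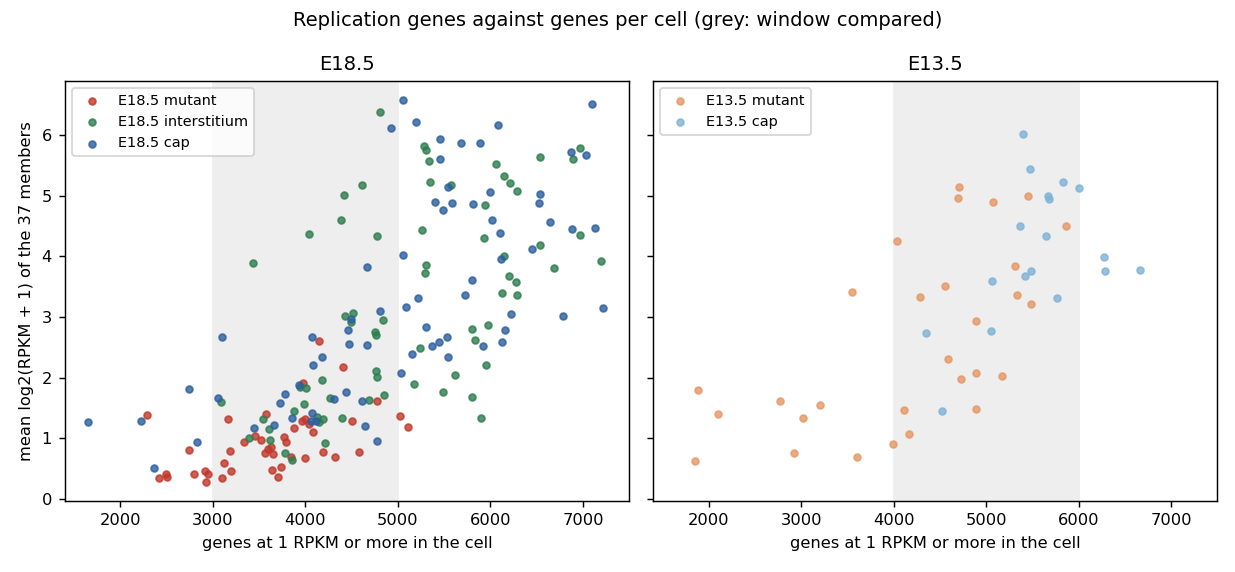
Replication score of each cell (y) against its count of detected genes (x), at E18.5 on the left and E13.5 on the right; the grey band is the window of genes per cell used for the restricted comparison. Within the E18.5 band the mean score was 1.02 in mutant cells, 2.36 in interstitium cells and 2.13 in cap cells.

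Member by member, 33 of the 37 members lay at least 1 log2 unit lower in E18.5 mutant cells than in E18.5 cap cells, and 0 lay that much higher. Among all 11100 genes detected in 10% of either group, 23.2% lay lower by 1 and 4.51% higher by 1. The median difference was -2.29 over the members and -0.40 over all these genes. Orc1 (-0.24), Cdt1 (-0.59), Ung (-0.66) and Pole (-0.92) were the 4 members lower by less than 1, followed by Cdc6 (-1.26). In the window of 3000 to 5000 genes per cell 18 members were lower by 1 or more and 0 higher, against 10.5% of all genes lower, and the median member difference was -0.97, against -0.06 for all genes. All 37 members passed the filter in the comparison of all cells, and 35 did within the window.

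Both the share of cells that held a transcript and, for most members assessed, its level where present were lower in mutant cells. These measures have different units and were not weighed against each other. The share of cells in which a gene was detected was lower in mutant than in cap cells for all 37 members, by a median of 43.1 percentage points. For the 22 members found in at least 5 cells of both groups, the mean log2(RPKM + 1) among the cells that held the transcript was lower in mutant cells for 17, with a median difference of -0.83, and 9 of these were lower by 1 or more. Level was not assessed for the rarer members. Neither measure was computed over all genes or in the window of genes per cell. The median mutant cell had 3643 detected genes, against 5210.5 in the cap, so lower shares are not particular to the members.

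**Figure D3:**
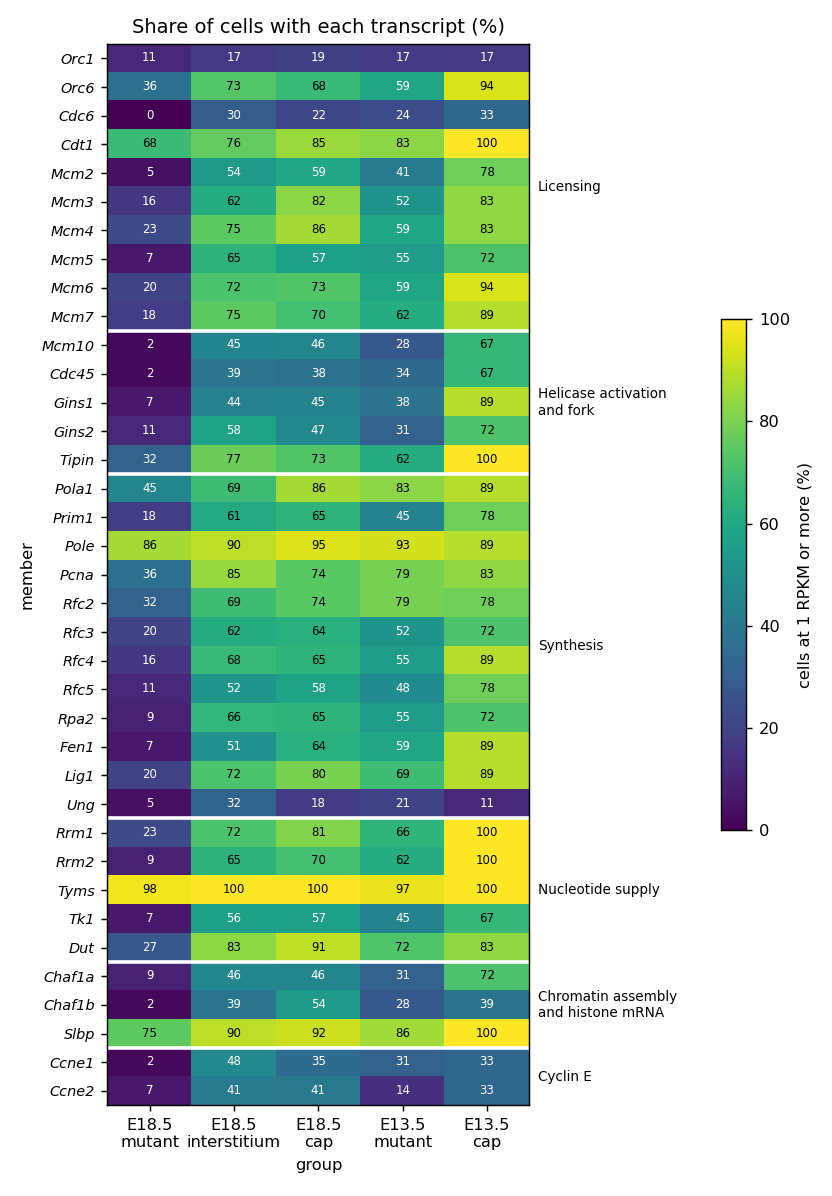
Percent of cells in which each of the 37 genes was detected (rows, sorted by role) in the 5 groups (columns). The E18.5 mutant column is lower than the interstitium and E18.5 cap columns in every row, with Tyms (98%), Pole (86%), Slbp (75%) and Cdt1 (68%) its highest values.

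Among the 10 licensing genes, 8 were lower than in the cap by 1 or more over all cells, against 23.2% of all genes. The 6 subunits of the MCM ring held the most negative differences, and Orc6 and Cdc6 were the others. Mcm4 (chr16:15623897-15637400, mm10) ranged from 0 to 238.5 RPKM with a median of 0 in mutant cells, from 0 to 937.4 with a median of 32.9 in interstitium cells, and from 0 to 629.5 with a median of 38.6 in cap cells. It was detected in 10 of 44 mutant cells, 53 of 71 interstitium cells and 64 of 74 cap cells, and its mean log2 difference was -3.74 from the cap. Mcm7 (chr5:138164589-138171862) had a median of 0 in mutant cells (highest 105.5), 16.3 in interstitium cells (highest 336.9) and 40.3 in cap cells (highest 943.1), a difference of -3.71 from the cap. Mcm3 (chr1:20803014-20820213) was detected in 7 mutant cells and 61 cap cells and differed by -3.69. The few mutant cells that held Mcm3 held it at 6.43 on the log2 scale, against 5.71 in the cap cells that held it. Mcm6 (-2.91), Mcm2 (-2.81) and Mcm5 (-2.70) were likewise low in mutant cells. In cells with 3000 to 5000 genes all 6 were still lower than in cap cells by 1 or more, between -2.33 (Mcm2) and -1.59 (Mcm6). Mcm5 and Mcm2 were the rarest subunits in the mutant, in 3 and 2 of 44 mutant cells, against 42 and 44 of 74 cap cells. The Mcm5 difference rests on the log scale, since a mutant cell at 1120 RPKM brings the log2 ratio of mean RPKM to -0.87.

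The loaders of the ring were less uniform. Cdc6 was listed at 0 in all 44 mutant cells and detected in 21 of 71 interstitium and 16 of 74 cap cells. Orc6, the smallest subunit of the origin recognition complex, averaged 2.02 ± 2.89 on the log2 scale in mutant cells, 4.12 ± 2.75 in interstitium cells and 4.31 ± 3.21 in cap cells, and was present in 16, 52 and 50 cells of these groups. Orc1, its ATP-binding subunit, was rare in all 3 groups, in 5 of 44 mutant cells, 12 of 71 interstitium cells and 14 of 74 cap cells, so its difference of -0.24 has little range to show one. Cdt1, which CDC6 and the origin complex need to load the ring and which geminin holds in check, had medians of 2.31 RPKM in mutant cells, 2.61 in interstitium cells and 4.08 in cap cells and differed by -0.59 from the cap.

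The helicase activators lay lower in the mutant over all cells, but by less than 1 log2 unit from the cap in cells with 3000 to 5000 genes. Tipin, which with its partner steadies the fork, differed by -3.08 between mutant and cap cells, Gins2 by -2.10, Mcm10 by -2.01, Gins1 by -1.99 and Cdc45 by -1.88. In the window of 3000 to 5000 genes the differences were -0.27 for Tipin, -0.0001 for Gins2, -0.63 for Mcm10, -0.57 for Gins1 and -0.33 for Cdc45. Against the interstitium 3 of these 5 stayed lower by 1 or more in that window, Gins2 (-1.83), Tipin (-1.47) and Mcm10 (-1.32). Cdc45 never passed 1.41 RPKM in a mutant cell and Mcm10 never passed 1.61, while they reached 236.5 and 158.8 RPKM in cap cells. Not one of Cdc45, Gins1 and Gins2 was detected in 36 of 44 mutant cells, against 18 of 71 interstitium cells and 25 of 74 cap cells. About 67.3% of the exon bases of Gins2 are shared with the opposite-strand gene Gse1 in the GENCODE vM21 annotation, and whether the counting used strand is not given in the sources used here.

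Of the 12 synthesis genes, 10 were lower by 1 or more over all cells, against 23.2% of all genes. In the window of 3000 to 5000 genes 7 were, against 10.5% of all genes. There Lig1 differed by -2.38 and Pcna by -1.27 from the cap. Lig1, the ligase that seals the lagging strand, had a median of 0 in mutant cells (highest 65.2), 14.8 in interstitium cells (highest 171.2) and 15.8 in cap cells (highest 219.5), a difference of -3.15 from the cap. Pcna, the sliding clamp (chr2:132249286-132253180), was present in 16 of 44 mutant cells, 60 of 71 interstitium cells and 55 of 74 cap cells and differed by -2.94. The clamp loader genes Rfc4 (-2.89), Rfc2 (-2.79), Rfc5 (-2.27) and Rfc3 (-1.89), the primase subunit Prim1 (-2.83) and Rpa2 of the single-strand binding complex (-2.71) were all lower. The catalytic subunits of the polymerases differed less, Pola1 by -1.62 and Pole by -0.92. Pole, of the leading-strand polymerase, was detected in 38 of 44 mutant cells, with a median over all mutant cells of 2.51 RPKM, against a median of 4.22 in cap cells. Ung, which removes uracil from DNA, was detected in 2 mutant, 23 interstitium and 13 cap cells and differed by -0.66 between mutant and cap cells. Fen1, the flap nuclease, was present in 3 of 44 mutant cells and 47 of 74 cap cells and differed by -2.48 on the log scale, but a mutant cell at 2374 RPKM turns its log2 ratio of mean RPKM to 0.66. Fen1 shares 78.8% of its exon bases with the antisense gene Gm10143, so reads of the 2 cannot be told apart without strand. Orc1, Rfc2, Rfc4, Rfc5 and Ccne2 also share over 10% of their exon bases with an opposite-strand gene, at most 17.4% (Ccne2).

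Nucleotide supply held the most negative differences on the log2(RPKM + 1) scale. Rrm2 (chr12:24708254-24714146), the S-phase subunit of ribonucleotide reductase, was detected in 4 of 44 mutant cells, 46 of 71 interstitium cells and 52 of 74 cap cells. Its medians were 0, 11.9 and 37.3 RPKM in mutant, interstitium and cap cells, with highest values of 409, 1995 and 929.9. The difference from the cap was -4.21, the most negative of the 37 members on this scale. By log2 ratio of mean RPKM, Cdc45 (-9.34) and Mcm10 (-8.32) were the most negative and Rrm2 was at -3.98. In cells with 3000 to 5000 genes Rrm2 differed by -1.51, Rrm1 by -2.22, Dut by -3.34 and Tk1 by -1.58 from the cap. Rrm1 (chr7:102441695-102469771), the large subunit, differed by -4.05, with medians of 0 RPKM in mutant cells, 59 in interstitium cells and 90.8 in cap cells. A mutant cell at 3325 RPKM exceeded every cap cell and brings the log2 ratio of mean Rrm1 RPKM to -0.67. Dut, which hydrolyses dUTP, differed by -3.76 and was present in 12 of 44 mutant cells, 59 of 71 interstitium cells and 67 of 74 cap cells. Thymidine kinase 1 (Tk1) was found in 3 of 44 mutant cells, 40 of 71 interstitium cells and 42 of 74 cap cells, a difference of -2.94 from the cap.

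Thymidylate synthase (Tyms) was unlike the rest of its role. It was detected in 43 of 44 mutant cells, 71 of 71 interstitium cells and 74 of 74 cap cells, so its difference of -1.65 from the cap was one of level, and it was -0.40 in cells with 3000 to 5000 genes. The range was 0.18 to 141.5 RPKM with a median of 10.9 in mutant cells, 1.81 to 262.2 with a median of 48.5 in interstitium cells, and 1.2 to 464.4 with a median of 36.4 in cap cells. Tyms had the highest mean of the 37 members in E18.5 mutant cells, at 3.48 ± 1.31 on the log2 scale. Its shared part with the pseudogene Tyms-ps, if reads were split between them, is unknown, as is that of Pcna with the pseudogenes Pcna-ps1 and Pcna-ps2.

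Genes of chromatin assembly and cyclin E were lower in the mutant over all cells, but in cells with 3000 to 5000 genes only Chaf1b (-1.31) of the 5 stayed lower than the cap by 1 or more. Chaf1b differed by -2.09 and Chaf1a by -1.37, both subunits of the factor that places histones behind the fork, and 52.5% of the exon bases of Chaf1a are shared with the opposite-strand gene Ubxn6. Slbp, which binds histone mRNA, differed by -2.07, with a median of 4.03 RPKM in mutant cells, 61.3 in interstitium cells and 38 in cap cells. Ccne1 was present in 1 of 44 mutant cells, 34 of 71 interstitium cells and 26 of 74 cap cells. Ccne2 was present in 3 mutant, 29 interstitium and 30 cap cells. Both cyclin E genes together were in 0 mutant cells, 19 interstitium cells and 17 cap cells.

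Against the interstitium the mutant gave nearly the same picture. In this comparison 34 of 37 members were lower by 1 or more and 0 higher, against 23.4% of 10903 genes lower and 2.05% higher, and the median was -2.21 for members and -0.41 for all genes. The most negative were Rrm2 (-3.54), Pcna (-3.53), Mcm7 (-3.42), Mcm4 (-3.36) and Rrm1 (-3.36), while Orc1 (-0.13), Pole (-0.44) and Cdt1 (-0.47) were lower by less than 1 and Pola1 (-1.0) and Ung (-1.21) came next. The other MCM subunits lay between -3.20 (Mcm5) and -2.52 (Mcm3), and Tk1 differed by -3.18, Dut by -3.01, Orc6 by -2.10, Tyms by -1.66 and Cdc6 by -1.46. With cells of 3000 to 5000 genes, 24 members were lower by 1 or more, against 11.5% of all genes, and the median was -1.32 for members and -0.11 for all genes. With a pseudocount of 10 RPKM in place of 1 the count over all cells was 19, and the share over all genes was not computed for it. The interstitium cells, whose stromal score of 4.76 was the nearest to the 5.59 of the mutant, had a replication score of 3.18, against 0.93 in the mutant. The part of stromal identity, pool or genes per cell in that difference was not tested. The 2 comparisons share the mutant cells, so they are not separate evidence.

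Between interstitium and cap cells at E18.5 the replication score differed by -0.12, against a pooled SD of 1.64, and by -0.40 when only the 22 interstitium cells of pool 2, the pool of the cap cells, were used. Mcm3 alone was lower by 1 or more (-1.17, detected in 44 interstitium cells and 61 cap cells), and 0 members were higher. Of 11219 genes, 2.70% were lower by 1 and 5.94% were higher by 1. Next to Mcm3, Fen1 (-0.84), Dut (-0.75), Prim1 (-0.70) and Rrm1 (-0.69) were the lowest in interstitium cells, while Ccne1 (0.86), Gins2 (0.79), Pcna (0.59), Ung (0.55) and Rpa2 (0.50) were the highest. The sign of the score difference was not stable, at 0.23 in cells with 3000 to 5000 genes. In that window 5 members were higher in interstitium cells by 1 or more, Gins2 (1.83), Ccne1 (1.74), Rpa2 (1.45), Mcm5 (1.4) and Tipin (1.21), against 10.6% of all genes higher. Dut (-1.01) alone was lower by 1 or more there, against 5.13% of all genes lower, and Mcm3 differed by -0.25.

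**Figure D4:**
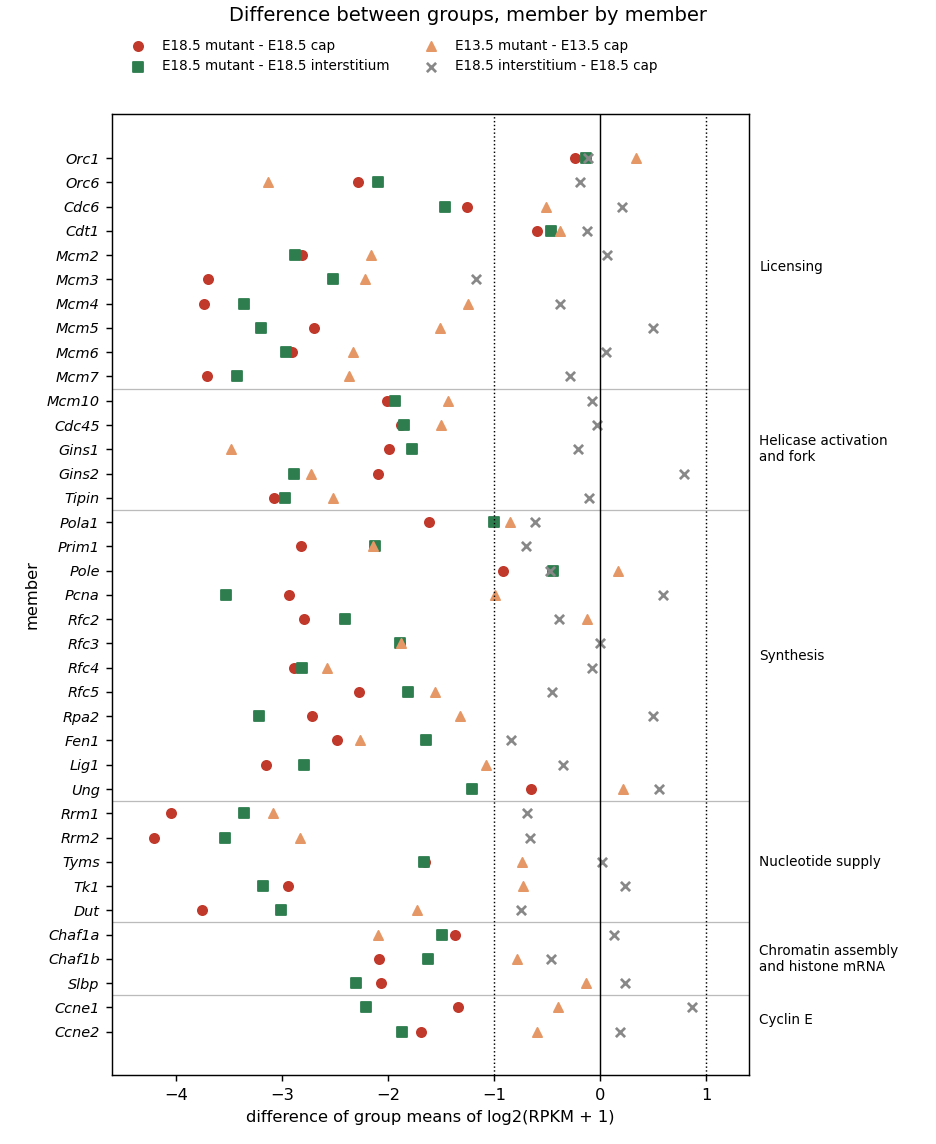
Difference of group means of log2(RPKM + 1) for each of the 37 genes, sorted by role, in 4 comparisons; dotted lines mark 1 log2 unit on either side of 0. With all cells used, E18.5 mutant cells lay below both wild-type groups for every gene, whereas interstitium and cap cells differed by less than 1 for all genes but Mcm3.

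At E13.5, where all cells were in 1 pool, the difference between mutant and cap cells was smaller than at E18.5 with all cells used. The score differed by -1.48, against a pooled SD of 1.35, and 23 of 29 mutant cells lay below the cap median. Of the members, 23 were lower by 1 or more and 0 higher, against 27.7% of 11449 genes lower and 1.43% higher, with medians of -1.50 for members and -0.45 for all genes. In cells with 4000 to 6000 genes (19 mutant and 15 cap cells) the score was 3.23 ± 1.33 in mutant cells and 4.13 ± 1.24 in cap cells, a difference of -0.90, and 18 members were lower by 1 or more, against 13.7% of all genes. The E18.5 window of 3000 to 5000 genes gave a nearby difference of -1.12, with 18 members lower, against 10.5% of all genes.

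The helicase activators stood lowest at this age, and 4 of the 5 stayed lower by 1 or more in cells with 4000 to 6000 genes, against 13.7% of all genes. Gins1 had a median of 0 in mutant cells (highest 195.1) and 59.7 RPKM in cap cells (highest 279.4), was present in 11 of 29 mutant cells and 16 of 18 cap cells, and differed by -3.48. Orc6 (-3.14), Rrm1 (-3.08), Rrm2 (-2.83) and Gins2 (-2.73) came next. The MCM subunits lay between -2.37 (Mcm7) and -1.25 (Mcm4), Dut at -1.72, Tyms at -0.74, Tk1 at -0.73, Cdc6 at -0.51 and Cdt1 at -0.38. Rrm1 and Rrm2 were present in all 18 cap cells, the lowest at 9.26 and 1.06 RPKM, and in 19 and 18 of 29 mutant cells. The role means differed by -2.33 for helicase activation and the fork, -1.82 for nucleotide supply, -1.55 for licensing, -1.2 for synthesis, -1.0 for chromatin assembly and -0.50 for cyclin E. Slbp (-0.13), Rfc2 (-0.12), Pole (0.16), Ung (0.22) and Orc1 (0.33) were the 5 members highest in mutant relative to cap cells. Mutant cells with many replication transcripts were frequent at E13.5: 14 of 29 held 20 or more members, and the highest values of Mcm3 (707.7 RPKM in mutant cells, 246.1 in cap cells) and Cdc45 (643.3 in mutant cells, 199.8 in cap cells) were in mutant cells. The mean over members of the log2 ratio of mean RPKM was -0.40, with 10 members lower and 2 (Orc1 at 2.53 and Ung at 1.53) higher by 1 or more on that scale. The share over all genes was not computed on that scale.

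Between the ages, E18.5 cells were lower than E13.5 cells in both genotypes of the cap. In mutant cells the score differed by -1.67 between E18.5 and E13.5, against a pooled SD of 1.0, and 27 members were lower by 1 or more and 0 higher, against 11.5% of 10872 genes lower and 6.69% higher. Rrm2 (-3.52), Pcna (-3.03), Rfc2 (-2.98), Lig1 (-2.67) and Mcm7 (-2.53) were the most negative, and Orc1 (-0.12), Orc6 (-0.50), Cdt1 (-0.53), Ung (-0.57) and Ccne2 (-0.72) the least. Pcna was in 16 of 44 E18.5 mutant cells and 23 of 29 E13.5 mutant cells, and Rfc2 in 14 and 23 cells of these groups. In wild-type cap cells the score differed by -0.79 between E18.5 and E13.5, against a pooled SD of 1.57. There 14 members were lower by 1 or more and 0 higher, against 14.5% of 11423 genes lower and 2.53% higher. Gins1 (-3.09), Rrm2 (-2.14), Fen1 (-2.11), Rfc4 (-1.99) and Chaf1a (-1.60) led, while Chaf1b (0.54), Orc1 (0.46), Ccne2 (0.37), Pole (0.33) and Ung (0.30) were higher at E18.5 by less than 1. The cap difference shrank to -0.50, with 5 members lower by 1 or more, without the cells at 20000 RPKM or more of the gene entry LOC100503946, and to -0.04 as a mean log2 ratio of mean RPKM. The share over all genes was not computed without those cells. These comparisons use the same groups of cells as those of mutant with cap cells.

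With all cells used, licensing and synthesis differed to a like extent in E18.5 mutant cells. On the log2(RPKM + 1) scale nucleotide supply then differed more than either. Licensing minus synthesis, taken within each cell, averaged -0.14 ± 0.82 in E18.5 mutant cells, 0.04 ± 1.01 in interstitium cells and -0.01 ± 1.21 in E18.5 cap cells. At E13.5 it was -0.54 ± 1.09 in mutant cells and -0.18 ± 1.20 in cap cells. Licensing minus nucleotide supply averaged -0.46 ± 0.88 in E18.5 mutant cells, -1.16 ± 1.64 in interstitium cells and -1.39 ± 1.75 in E18.5 cap cells. The E18.5 mutant differed by 0.93 from the cap and by 0.70 from the interstitium in this measure, as nucleotide supply itself differed by -3.32 and licensing by -2.39 from the cap. At E13.5 licensing minus nucleotide supply was -1.37 ± 1.46 in mutant cells and -1.64 ± 1.21 in cap cells, a difference of 0.27. Where both scores are near 0 their difference is small by construction.

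**Figure D5:**
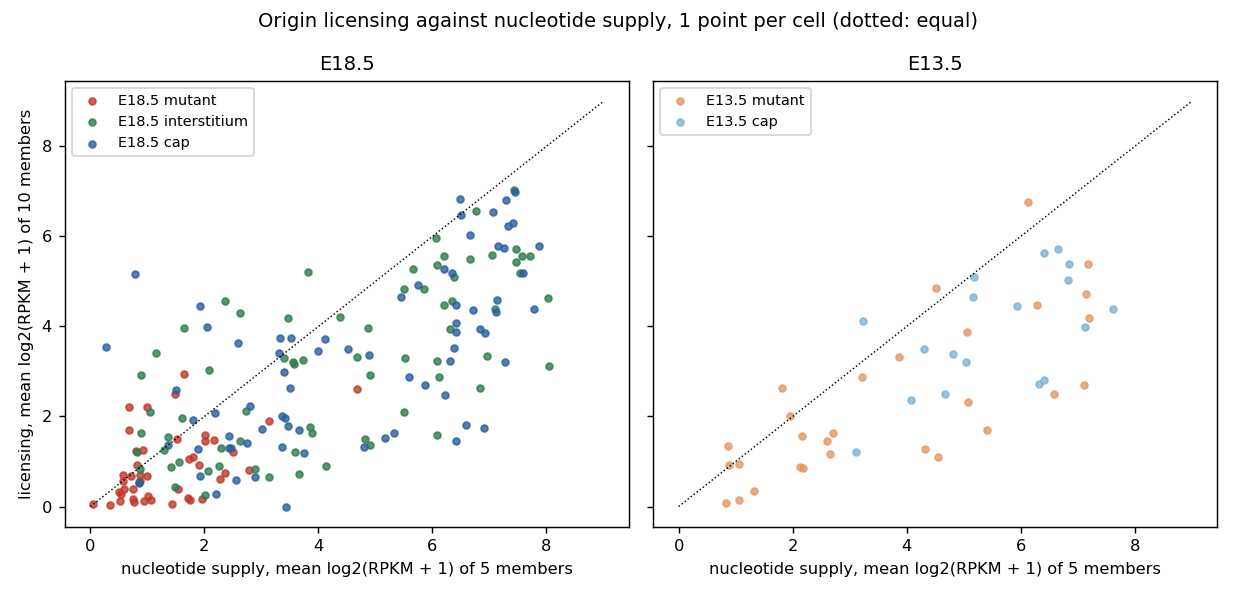
Mean log2(RPKM + 1) of the 10 licensing genes (y) against that of the 5 nucleotide supply genes (x) in each cell, at E18.5 on the left and E13.5 on the right; the dotted line marks equal values. E18.5 mutant cells gather near the origin, with means of 0.89 for licensing and 1.36 for nucleotide supply, against 3.28 and 4.68 in E18.5 cap cells.

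Counts of cells that held all parts of one machine follow the shares of the single genes, and Mcm2, in 2 E18.5 mutant cells, limits the first of them there. All 6 MCM subunits were detected in 0 of 44 E18.5 mutant cells, 22 of 71 interstitium cells, 27 of 74 E18.5 cap cells, 3 of 29 E13.5 mutant cells and 9 of 18 E13.5 cap cells. None of the 6 was found in 19 E18.5 mutant cells, 3 interstitium cells, 2 E18.5 cap cells, 3 E13.5 mutant cells and 0 E13.5 cap cells. Both subunits of ribonucleotide reductase were present in 3, 41, 46, 14 and 18 cells of these groups, in the same order. Each member was also set against the mean of the other 36 across the cells of a group. The median correlation was 0.17 over 44 E18.5 mutant cells, 0.59 over 71 interstitium cells, 0.60 over 74 E18.5 cap cells, 0.55 over 29 E13.5 mutant cells and 0.44 over 18 E13.5 cap cells. A correlation of 0.5 or more was reached by 2 of the 36 members that varied in E18.5 mutant cells, against 0.337% of other genes, and by 28 of 37 in E18.5 cap cells, against 2.53% of other genes. These correlations share each cell's capture and depth and, in the sparse mutant values, describe little.

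The mutant cells with the most members did not look alike. Mutant cell 31 held 18 members at 4403 genes, with Mcm3 at 421.7 RPKM, Mcm6 at 205.9, Rfc5 at 141, Gins2 at 101 and Chaf1b at 67.5, but Rrm2, Tk1, Cdc6, Mcm2 and Mcm5 at 0. Its mean over 15 genes of G2 and M phase was 0.26. Mutant cell 17 held 17 members at 4146 genes, with Tk1 at 350.1 RPKM, Mcm3 at 210.6, Tipin at 210.6, Mcm5 at 168.1, Rpa2 at 145.1 and Rrm2 at 86.9. It also held Top2a at 744.8 and Mki67 at 218.9 RPKM, both made by dividing cells, and a G2 and M phase mean of 7.19. Top2a or Mki67 was detected in 5 of 44 E18.5 mutant cells, 58 of 71 interstitium cells, 64 of 74 E18.5 cap cells, 20 of 29 E13.5 mutant cells and 17 of 18 E13.5 cap cells.

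Other genes of the pathway went the same way in part. Of 38 further replication factors, 26 lay at least 1 lower in E18.5 mutant than in cap cells and 0 higher, against 23.2% of all genes lower, with a median of -1.39. Uhrf1, which reads hemimethylated DNA behind the fork, differed by -4.23 (in 7 of 44 mutant cells and 63 of 74 cap cells), Asf1b, a histone chaperone, by -2.77, and Dnmt1, the maintenance methyltransferase, by -2.51. Some factors were present throughout: Rfc1 was in 44 of 44 mutant cells and 73 of 74 cap cells (-0.46), and Mcmbp, which binds the MCM ring, was in 44 mutant and 72 cap cells and higher by 0.74 in the mutant. All 15 genes of G2 and M phase were lower by 1 or more, led by Top2a (-5.22). Of the 11 genes of the E2F and RB family, 2 were lower by 1 or more, E2f8 (-1.68) and Rbl1 (-1.06), a share no higher than the 23.2% of all genes, and E2f1 differed by -0.32. Among 8 inhibitors of CDKs and of licensing, of which 5 passed the filter, 1 was higher and 2 were lower than in the cap by 1 or more. Their median was -0.12, and over all genes 4.51% were higher and 23.2% lower. The higher one was Cdkn1c, which encodes the inhibitor p57, by 5.18 over the cap and by 1.32 over the interstitium. Its means were 9.27 on the log2 scale in mutant cells, 7.95 in interstitium cells and 4.09 in cap cells. Gmnn, which encodes geminin, was lower by 2.42 than in the cap. Ccnd2, a cyclin of G1, was higher by 3.05 in mutant than in cap cells but differed by -2.23 from the interstitium, with means of 5.42 in mutant cells, 7.65 in interstitium cells and 2.37 in cap cells. Its partner Cdk4 differed by -2.84 from the cap.

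At E13.5, 18 of the 38 further factors were lower by 1 or more in mutant than in cap cells and 0 higher, against 27.7% of all genes lower, and 15 of 15 genes of G2 and M phase were lower. Cdkn1c differed by 0.65 there and Ccnd2 by 0.93. General transcripts moved too: of 8 genes used as a check on RNA level, 4 were lower by 1 or more in the mutant at E18.5 (Gapdh by -2.92, Hprt by -2.63) with Actb higher by 1.41, and 4 were lower at E13.5 (Hprt by -3.16). The part of such shifts in the members' differences was not tested. With all cells brought to an equal sum of RPKM the E18.5 score difference between mutant and cap was -2.30, and with median-ratio scaling it was -2.58.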

How the data were processed

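Per the labels' protocols, kidneys were digested with proteases, wanted cells were enriched by FACS, and single cells were captured on the Fluidigm C1, 1 cell per sample. The authors deposited 1 table of RPKM for 237 cells and 36186 gene entries. Reads were aligned with TopHat to mm10, per the submitters' processing notes, and no version, gene annotation or rule for counting reads is given in the sources used here. No counts are given, so read depth is unknown. Groups follow source name, cell type, genotype and age, and 1 cell with conflicting labels entered none.

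From the deposited RPKM, log2(RPKM + 1) was averaged over the cells of a group, and differences of means were computed for every gene detected (1 RPKM or more) in 10% of either group. A difference of 1 log2 unit, with no p-value, served as the line for counting genes, and all 37 members are reported, with the 5 lowest and 5 highest of each comparison and all members of licensing and nucleotide supply named. Shares carry exact Clopper-Pearson 95% intervals. The members and the gene lists were chosen with earlier results of these data known. No doublet caller was used. Promoter sequences are from RefSeq (GRCm38.p6). Python 3.11.15, numpy 2.4.6, pandas 2.3.3, scipy 1.17.1 and matplotlib 3.10.9 were used.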

Additional observations from a re-analysis of the deposited data

Results flagged for a closer look

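Over all cells, the members Orc1, Pole and Ung moved in opposite directions in mutant relative to cap cells at the 2 ages. In each case the difference between ages was not tested. Orc1 differed by -0.24 at E18.5 and by 0.33 at E13.5, Pole by -0.92 at E18.5 and by 0.16 at E13.5, and Ung by -0.66 at E18.5 and by 0.22 at E13.5. Within the windows of genes per cell, only Ung kept opposite signs (-0.51 at E18.5 and 0.35 at E13.5). There Orc1 was higher in mutant cells at both ages (0.50 and 0.37) and Pole lower at both (-0.66 and -0.39). All are below 1 log2 unit, and Orc1 and Ung were at 1 RPKM or more in 20.7% or less of the cells of each of these 4 groups. The 1 E13.5 cell that entered no group, because its labels name both lineages, held 23 of the 37 members at 1 RPKM or more, with a replication score of 2.79, 6570 genes, Tyms at 35.4 RPKM, Rrm2 at 7.64 RPKM and Mcm6 at 0. It held Six2 at 143.5 RPKM and Pdgfra at 0.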

How the results depend on the processing

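No paired analysis was possible because the results come from no test, the labels name no embryo, and nothing in them says that equal cell numbers mark cells of common origin. For 29 results, 254 alternative values were computed. Of the counts of members, 13 moved by over 1.5 times and 54 did not, and of the shares of cells, 19 left their interval and 21 did not. Of 61 alternative score differences, 19 moved by over 1.5 times or changed sign, though none by as much as 1 SD between cells, a wide margin beside differences of this size. No score difference of 1 log2 unit or more changed sign, and the score difference between E18.5 mutant and cap cells ranged from -3.69 to -1.12, that between the ages of cap cells from -1.15 to -0.04, and that between interstitium and cap cells from -0.40 to 0.23. The alternatives without the 4 members common in E18.5 mutant cells, without the 11 cells with both Xist and a Y-linked transcript, and without the 3 cells high in markers of another cell type, were chosen after seeing the data. Read depth is unknown, so a value of 0 is not shown to be absence.

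Counts of members past 1 log2 unit moved as follows, and the cause was not tested. In cells with 3000 to 5000 genes the count was 18 (33 over all cells) for E18.5 mutant minus cap and 6 (5 higher and 1 lower, against 1 lower over all cells) for interstitium minus cap. A pseudocount of 10 RPKM, which compresses all differences, gave 19 for E18.5 mutant minus interstitium (34), 0 for interstitium minus cap (1), 13 for E13.5 mutant minus cap (23), 4 for E18.5 cap minus E13.5 cap (14) and 14 for E18.5 mutant minus E13.5 mutant (27). A pseudocount of 0.1 RPKM gave 7 for interstitium minus cap. Without cells high in LOC100503946 the count was 5 for interstitium minus cap and 5 for E18.5 cap minus E13.5 cap. With pool 2 interstitium cells it was 4. By log2 ratio of mean RPKM it was 12 for E13.5 mutant minus cap and 6 for E18.5 cap minus E13.5 cap. Outside the windows of genes per cell, the share of all genes past the line was not computed for these alternatives.

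Shares of cells with 10 or more members moved with the definition. Counting any value above 0 gave 70.5% in the E18.5 mutant, 100% in the interstitium and 100% in the E13.5 mutant. Detection at 5 RPKM gave 9.09% in the E18.5 mutant, 80.3% in the interstitium, 79.7% in the E18.5 cap and 75.9% in the E13.5 mutant. A line of 7 members gave 70.5% in the E18.5 mutant, 100% in the interstitium, 100% in the E18.5 cap and 100% in the E13.5 mutant. A line of 15 gave 6.82%, 77.5%, 82.4% and 69% in these 4 groups. Without the 4 common members the shares were 9.09%, 83.1%, 86.5% and 79.3%. The E18.5 mutant stayed below the other 4 groups under each of these definitions. For the last of them this is no support, since the 4 members were picked by their share in E18.5 mutant cells.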
